A study of Homo sapiens with 2 samples.

Results

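The genes described here are 9 regulators of the premyogenic programme, PAX3, PAX7, SIX2, SIX4, EYA1, EYA2, EYA4, MET and LBX1, out of 19775 genes to which the array gives at least 1 unshared probe set. They were chosen by name, with earlier results of these data known. Every probe set that the platform annotation gives to 1 of them alone was read, 21 in all. RNA came from HUES9, a human embryonic stem cell line used at passage 32, and HUES9 is the only line in the data. In the SB-OG group, embryoid bodies (floating aggregates in which stem cells start to differentiate) were grown for 10 days with 10 µM SB-431542, a small molecule that blocks the kinase of receptors for activin, nodal and TGF-β. Their outgrowth on fibronectin was then kept in 1 µM of the inhibitor. In the control-OG group, embryoid bodies and outgrowth received the solvent DMSO at 0.01% over the same stages. Both groups used embryoid body medium without bFGF and a chemically defined outgrowth medium, and both were sampled at outgrowth passage 5. For each condition 3 samples were mixed and read on 1 Affymetrix array, so no value has a replicate error and no test or p-value is given.

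PAX3 and PAX7 are paired-domain transcription factors that mark muscle progenitors of the somite, and PAX7 marks the satellite cells of adult muscle as well. SIX2 and SIX4 belong to the sine oculis family of homeodomain factors, which bind the MEF3 site in muscle gene promoters, and EYA proteins are co-activators brought to those sites by the family. In the mouse embryo these factors act upstream of the myogenic factors Myf5, Myod1 and Myog, while the HGF receptor Met and the homeodomain factor Lbx1 are used by precursors that migrate into the limb. The same genes also serve elsewhere: PAX3 and PAX7 in dorsal neural tube and neural crest, SIX2 and EYA1 in the kidney, EYA1 and EYA4 in the ear, MET in many epithelia, and LBX1 in dorsal spinal interneurons.

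Of the 9 genes, 7 were above background on the SB-OG array and 3 of these, SIX2, SIX4 and MET, on the control-OG array as well. Background was set at percentile 95 of the signals of gene families assumed silent in these cells, an intensity of 27.0 on SB-OG and 31.9 on control-OG. All 7 passed 2-fold upward in SB-OG and none passed it downward, while EYA2 and LBX1 were below background on both arrays. Among the 12580 genes above background on either array, 12.4% passed 2-fold upward in SB-OG and 13.0% passed it downward, and the median log2 difference was -0.02. Of the 7, 4 passed the background level through SB-OG alone and could not have counted as lower. The members were also chosen with earlier results of these data known, so their count is not that of an unbiased list. At 3-fold, 4 members remained, EYA4, PAX7, SIX2 and EYA1, against 6.32% of genes above background.

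Promoter sequence is shown for the 3 of those 4 genes that matched the RefSeq promoter table (build GRCh38.p14) and for MET. Each window runs 5′ to 3′ from 95 bases before the table's start to 5 bases from it. Capitals mark letters that match a searched motif.
PAX7, chr1:18630751-18630850, plus strand: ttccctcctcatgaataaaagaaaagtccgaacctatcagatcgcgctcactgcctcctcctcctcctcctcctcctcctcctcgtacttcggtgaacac
EYA4, chr6:133241262-133241361, plus strand: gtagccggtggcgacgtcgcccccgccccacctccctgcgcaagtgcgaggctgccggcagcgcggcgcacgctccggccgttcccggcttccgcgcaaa
SIX2, chr2:45009448-45009547, minus strand: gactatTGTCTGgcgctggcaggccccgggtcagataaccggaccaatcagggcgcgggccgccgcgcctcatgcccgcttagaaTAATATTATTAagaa
MET, chr7:116672101-116672200, plus strand: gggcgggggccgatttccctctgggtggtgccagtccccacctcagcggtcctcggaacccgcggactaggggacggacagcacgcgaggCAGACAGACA

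In all, 6 members (PAX3, PAX7, SIX2, SIX4, EYA4 and MET) matched the promoter table, whose windows span 250 bases before to 50 after the start. The MEF3 letters TCAGGTT were in none of the 6 windows on either strand, and in 3.38% of 27305 promoters of the same length. A paired-type homeodomain motif, TAAT and ATTA with 3 bases between them, ended at the first base of the SIX2 start, and 0.381% of all promoters held it. The SMAD letters CAGACA were found in SIX2, on the strand opposite to the gene (TGTCTG in the window above), and at 2 overlapping places in MET, against 16.8% of all promoters. The E-box letters CAGCTG occurred once, in PAX7 between bases 22 and 27 after the start and so outside the stretch printed above, against 17.7% of all promoters. Such matches describe the letters only. The windows were rich in CpG: 5 of the 6 lay above the median of 14 CpG dinucleotides for all promoters, with a range of 14 to 39.

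PAX7 was detected in SB-OG only. Its brightest probe set, 1556638_at, had an intensity of 593 on SB-OG and 28.0 on control-OG, where it was below background. The difference was thus at least 18.6-fold, or 4.22 on the log2 scale, and 0.954% of genes above background had a value as large or larger. The other probe set of PAX7, 208060_at, was dim, at 38.5 on SB-OG and 8.93 on control-OG, which gives a bound of 0.27 on the log2 scale. Both probe sets were thus above background on SB-OG only.

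PAX3, the paralogue of PAX7, was close to the limit of detection. Of its 4 probe sets, 1 (231666_at) was above background, with 69.5 on SB-OG and 16.4 on control-OG, a bound of at least 2.18-fold. The other 3 lay between 1.37 and 3.81 on SB-OG and between 1.44 and 10.5 on control-OG, all below background. Averaged over the 4 probe sets, with those below background counted as no difference, the log2 difference was 0.28. At the 99th percentile of the silent families, PAX3 was not above background on either array.

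**Figure D1:**
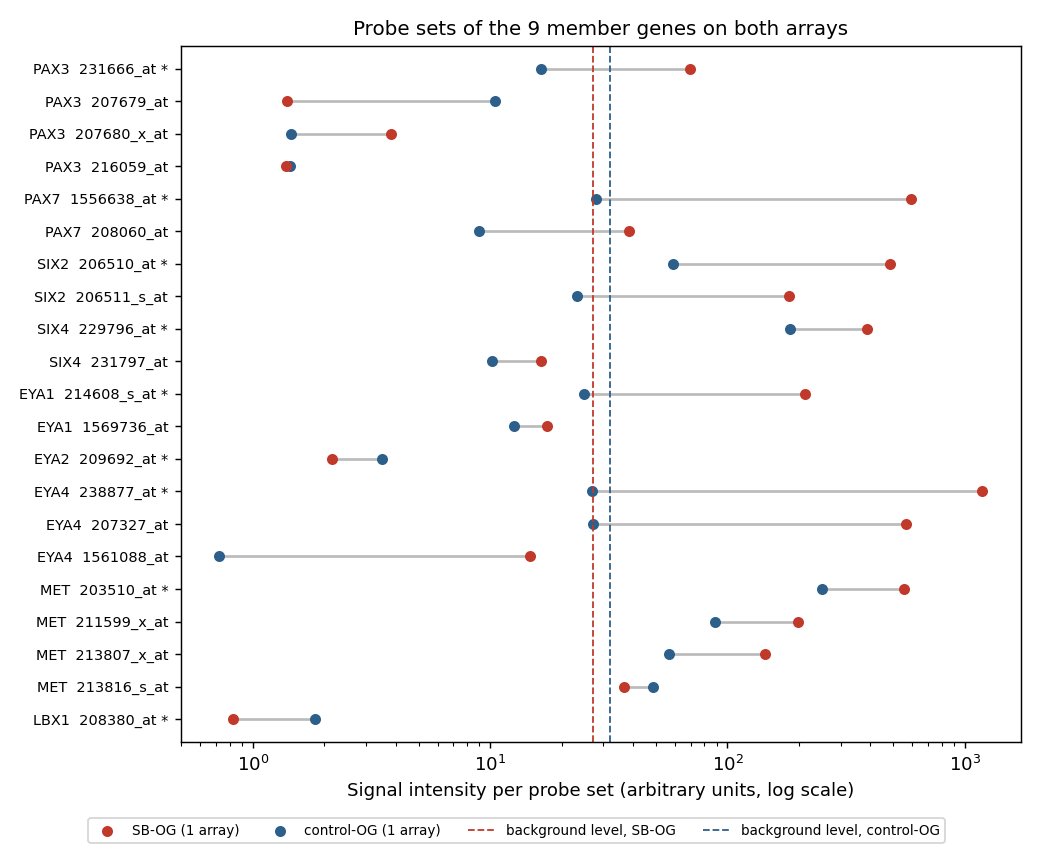
Intensity of each of the 21 probe sets of the 9 genes on the SB-OG array (red) and the control-OG array (blue), on a log axis, with each array's background level as a dashed line; an asterisk marks the brightest probe set of a gene. The red points of EYA4, PAX7, SIX2 and EYA1 reach 213 to 1186 at the brightest probe set, all right of the blue points, while EYA2 and LBX1 lie left of both lines.

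SIX2, a homeodomain factor known for keeping nephron progenitors undifferentiated, was higher by both of its probe sets. Probe set 206510_at read 482 on SB-OG and 58.9 on control-OG, above background on both arrays and 8.18-fold higher in SB-OG. Probe set 206511_s_at read 181 on SB-OG and 23.2 on control-OG, at least 5.68-fold higher. The difference on the log2 scale was 3.03 by the first and at least 2.51 by the second. For comparison, probe sets of the same gene had log2 differences that scattered by 0.47 (SD) over 4962 genes, a technical spread that does not stand for replicate error.

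SIX4, a factor of limb and trunk muscle formation in the mouse, was present in both cultures. Its brightest probe set, 229796_at, had an intensity of 386 on SB-OG and 183 on control-OG, a 2.10-fold difference (1.07 on the log2 scale). The other, 231797_at, was below background at 16.4 on SB-OG and 10.2 on control-OG. A gap of this size between conditions was common, since 11.3% of genes above background had a difference as large or larger. Among 4962 genes with several measured probe sets, 18.1% had probe sets that were more than 1 apart on the log2 scale.

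EYA4, a co-activator mutated in an inherited deafness, had the highest bound of the 9 genes. Probe set 238877_at read 1186 on SB-OG and 26.8 on control-OG, at least 37.2-fold higher, and probe set 207327_at read 568 on SB-OG and 27.0 on control-OG, at least 17.8-fold higher. Its dimmest probe set, 1561088_at, stayed below background at 14.7 on SB-OG and 0.719 on control-OG. By its brightest probe set EYA4 ranked 58th from the top of 12580 genes.

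EYA1, a co-activator needed for ear and kidney development, was at least 6.68-fold higher by probe set 214608_s_at, with 213 on SB-OG and 24.9 on control-OG. Its second probe set, 1569736_at, read 17.4 on SB-OG and 12.6 on control-OG, below background on both arrays. The result for EYA1 therefore came from 1 probe set, whose name ending _s marks probes that may match several transcripts. EYA2 had a single probe set, at 2.16 on SB-OG and 3.49 on control-OG, and no fold is given.

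MET, the receptor tyrosine kinase for HGF, stood at 20.5 times background on SB-OG and 7.88 times background on control-OG. Probe set 203510_at read 553 on SB-OG and 251 on control-OG, 2.20-fold higher. Probe sets 211599_x_at and 213807_x_at, whose names mark possible cross-hybridisation, gave 2.23-fold and 2.53-fold. Probe set 213816_s_at was lower in SB-OG, at 36.7 against 48.7 on control-OG, a log2 difference of -0.41 close to background. LBX1 had 1 probe set, at 0.827 on SB-OG and 1.83 on control-OG, below background on both arrays.

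By probe set, 13 of the 21 were above background on at least 1 array, against 23568 of 41091 over all genes. Of the 13 member probe sets, 11 passed 2-fold upward in SB-OG and none downward. Among all 23568 probe sets above background, 12.7% were 2-fold higher and 12.0% 2-fold lower. The 2 that were not counted were 213816_s_at of MET, within 2-fold, and 208060_at of PAX7, whose bound lay under 2-fold and which passed 2-fold without the floor (2.11 on the log2 scale). Of the 13, 7 passed the background level through SB-OG alone and could not have counted as lower. Probe sets of one gene share their transcript and are not independent.

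**Figure D2:**
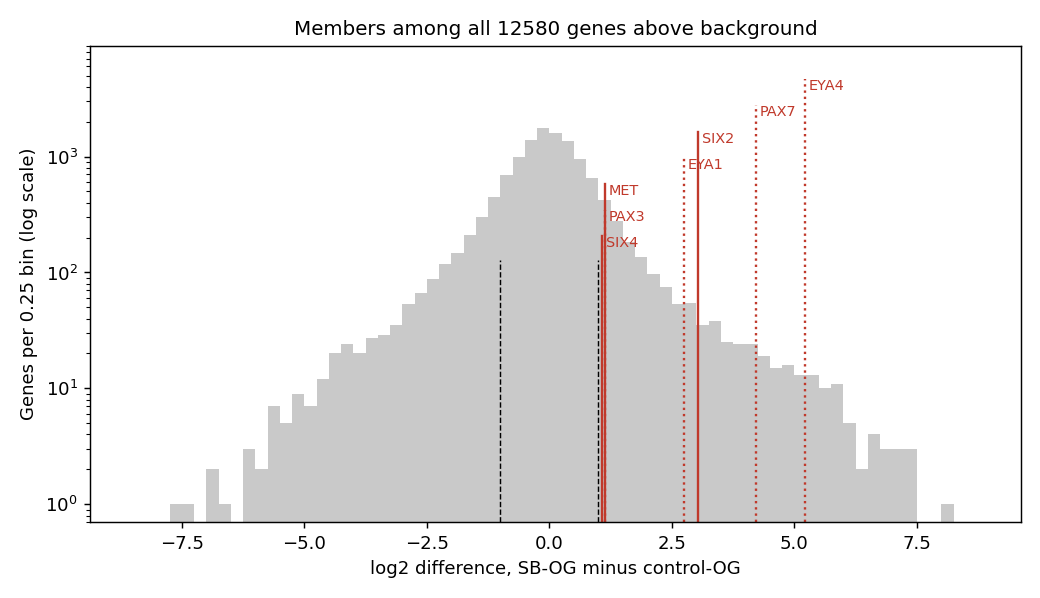
Histogram of log2 differences, SB-OG minus control-OG, for the 12580 genes above background on at least 1 array, with bins of 0.25 and a log count axis; red lines mark the 7 member genes (solid where measured on both arrays, dotted where the value is a lower bound) and dashed lines mark 2-fold. SIX4, PAX3 and MET stand at 1.07 to 1.14, just past 2-fold, and EYA1, SIX2, PAX7 and EYA4 at 2.74 to 5.22.

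Genes with the nearest log2 difference, over these 2 arrays and among genes measured on both, were SGTA, PEG10 and XIRP1 for SIX2, CENPQ, NLRP2 and KAT8 for SIX4, and METTL15, AREL1 and NCAPG for MET. With 2 arrays such likeness is weak: 15 genes lay within 0.1 of SIX2, 310 within 0.1 of SIX4 and 271 within 0.1 of MET. In this matching, levels of different genes were not compared.

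Other genes of the same families (PAX, sine oculis, EYA and DACH, whose proteins partner with EYA) were within 2-fold or undetected. Of 13 with a probe set, 3 were above background, and none was 2-fold higher or lower (median 0.14). PAX8 read 108 on SB-OG and 97.7 on control-OG, and SIX5 read 157 on SB-OG and 190 on control-OG. EYA3, the widely used EYA gene, read 459 on SB-OG and 394 on control-OG. Its other 2 probe sets went opposite ways, 1 detected on SB-OG only (52.7, against 21.4 on control-OG) and 1 on control-OG only (14.4 on SB-OG, against 38.8 on control-OG). PAX1, PAX2, PAX4, PAX5, PAX6, PAX9, SIX3, SIX6, DACH1 and DACH2 were not above background on either array by their brightest probe set.

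Of the 4 myogenic regulatory factors, which lie downstream of these genes in mouse muscle, 2 were at least 2-fold higher. MYOD1 had 1155 on SB-OG and 7.25 on control-OG (at least 36.3-fold), and MYOG had 688 on SB-OG and 7.66 on control-OG (at least 21.6-fold). MYF6 was just above background on SB-OG at 34.4, and 3.33 on control-OG. MYF5, a direct target of Pax3 in mouse limb, was below background at 4.37 on SB-OG and 8.00 on control-OG.

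Among 6 genes reported downstream of Pax3 or Pax7 in mouse muscle precursors, 3 were above background and all 3 were at least 2-fold higher, MYOD1 being one of them. FGFR4, a fibroblast growth factor receptor of muscle progenitors, read 800 on SB-OG and 33.9, just above background, on control-OG. The difference was 23.6-fold, with bounds of 1.28 and 2.59 on the log2 scale from its other probe sets. The signalling inhibitor SPRY1 read 577 on SB-OG and 71.9 on control-OG, an 8.02-fold difference, with 1.22 on the log2 scale by another probe set. ITM2A and DMRT2, like MYF5, were not above background.

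**Figure D3:**
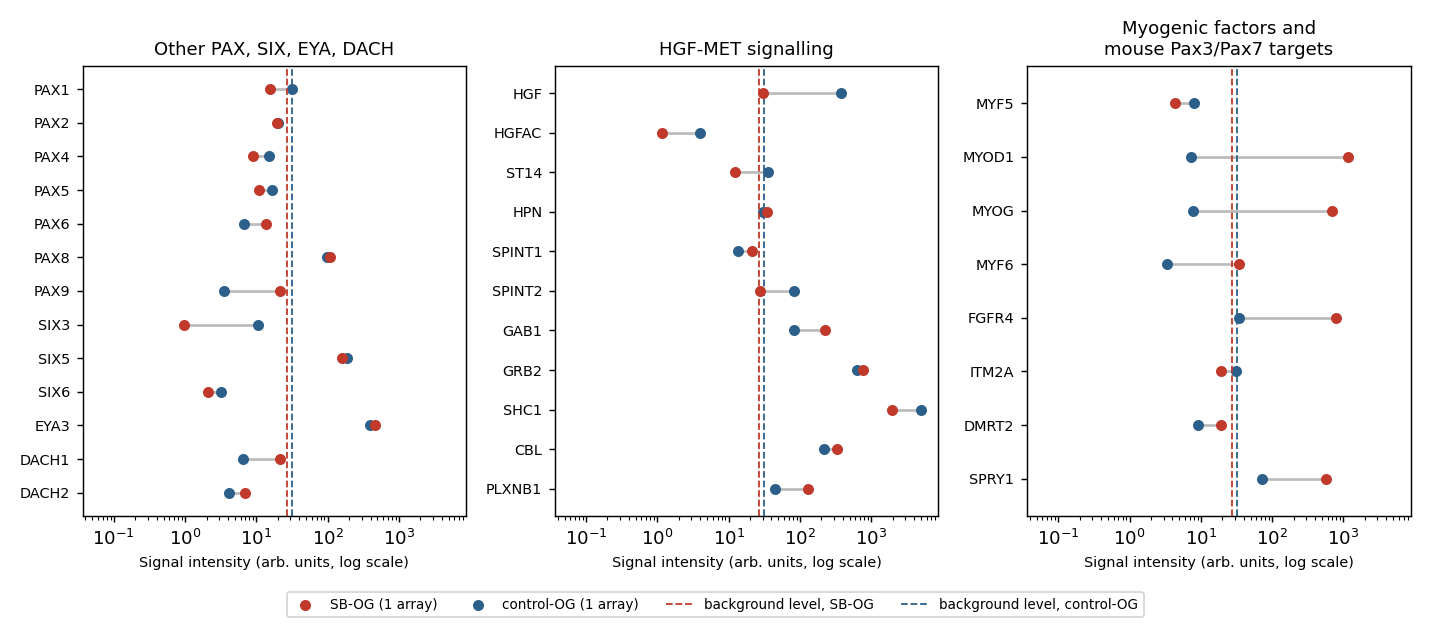
Intensity on the SB-OG array (red) and the control-OG array (blue), log axis, for other genes of the PAX, sine oculis, EYA and DACH families (left), HGF-MET signalling genes (middle), and myogenic factors with mouse Pax3 or Pax7 targets (right), with background levels dashed. PAX8, SIX5 and EYA3 have nearly coincident points, HGF is far lower in SB-OG (30.7 against 382 on control-OG), and MYOD1, MYOG, FGFR4 and SPRY1 are far higher.

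The ligand of MET differed in the opposite direction from its receptor. HGF read 30.7 on SB-OG, near background, and 382 on control-OG, a 12.4-fold lower value in SB-OG, and its other 4 probe sets were also lower. Of these, 1 was measured on both arrays and gave a log2 difference of -2.66, and the other 3 were detected on control-OG only, with 131 to 309 there and 12.5 to 18.6 on SB-OG. Of the 11 HGF-MET signalling genes, 9 were above background, with 2 at least 2-fold higher and 3 at least 2-fold lower (median 0.14). GAB1, the docking protein of MET, was 2.72-fold higher, with 227 on SB-OG and 83.4 on control-OG. Its other 3 probe sets measured on both arrays gave log2 differences of 0.23, 1.11 and 1.73, and 1 more was detected on SB-OG only. PLXNB1, a receptor that binds MET, was 2.92-fold higher, with 132 on SB-OG and 45.1 on control-OG, and its other probe set read 31.6 on SB-OG and 5.38 on control-OG, the second below background. SPINT2, an inhibitor of the proteases that activate HGF, was 2.99-fold lower and the adaptor SHC1 2.53-fold lower. The adaptor GRB2 read 769 on SB-OG and 642 on control-OG.

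Satellite cell genes other than PAX7 were mostly detected, 18 of 20, with 8 at least 2-fold higher and 2 lower (median 0.83). The Notch target HEYL read 1570 on SB-OG and 20.3 on control-OG (at least 49.3-fold), with a bound of 1.20 on the log2 scale by another probe set. The muscle cadherin CDH15 read 677 on SB-OG and 29.5 on control-OG (at least 21.2-fold). The laminin receptor subunit ITGA7 read 1451 on SB-OG and 74.7 on control-OG (19.4-fold). SDC4 and SDC3, syndecans of satellite cells, were 6.65-fold and 2.46-fold lower. CALCR, a marker of quiescent satellite cells, was below background at 7.95 on SB-OG and 20.3 on control-OG.

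Somite and head muscle factors divided. Of 10 somite and sclerotome genes, 6 were above background, with 2 at least 2-fold higher and 1 lower (median 0.11). MEOX2, a limb muscle and somite factor, read 150 on SB-OG and 3.97 on control-OG (at least 4.72-fold), and MEOX1 read 90.1 on SB-OG and 14.3 on control-OG (at least 2.83-fold). TWIST1, a mesenchymal factor that restrains myogenesis, was 3.45-fold lower. Of 5 head muscle factors, 4 were above background and 1 was at least 2-fold higher, MSC at 2.60-fold (median 0.24).

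Genes of other cells that use the same regulators were read beside them. Differentiated skeletal muscle genes were at least 2-fold higher for 12 of 12 above background, with a summed intensity of 66072 on SB-OG and 513 on control-OG. They were led by the perinatal myosin MYH8 (at least 263-fold), the troponins TNNI1 (160.5-fold) and TNNC2 (153-fold), and CKM (at least 150.2-fold). Neural crest and Schwann cell markers, 9 of 12 above background, were at least 2-fold higher for 4 and lower for 3 (median -0.08), with a summed intensity of 5811 on SB-OG and 4886 on control-OG. CDH19, SOX10 and TFAP2B stayed below background, whereas ERBB3 was at least 31.3-fold, SOX8 48.5-fold and NGFR at least 3.35-fold higher, and SNAI2 was 3.09-fold lower. Neural tube and neuronal markers, 6 of 15 above background, were at least 2-fold higher for 3 and lower for 1 (median 1.47). Their summed intensity was 10964 on SB-OG and 4735 on control-OG. Most of both sums came from TUBB3, which was within 2-fold at 6918 on SB-OG and 4141 on control-OG.

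In that neural list, DCX was 42.8-fold higher (32.5 on control-OG, just above background), NEFM 38.3-fold higher and MSX1 2.53-fold lower. PAX6, SOX3, OTX2, NEUROG1, NEUROG2, LMX1A, OLIG3 and WNT1 were not above background. SOX1 was above it only by a probe set other than the one used for the gene, at 41.9 on SB-OG. Of 5 dorsal interneuron factors, which mark cells that use LBX1, POU4F1 was at least 7.75-fold higher and TLX3, LHX1, LHX5 and LMX1B were not above background. None of the 5 cranial placode and otic markers was above background. Of 9 kidney precursor markers 6 were above background, with CITED1 at least 16.9-fold higher, OSR1 2.44-fold lower, and PAX2, WT1 and LHX1 not above background (median -0.09). The part of these cells in the values of PAX3, PAX7, SIX2, EYA1 and EYA4 was not tested, and more cells of a type cannot be told apart from more RNA per cell in a mixed culture.

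As for the cells themselves, of 5 pluripotent cell markers NANOG and LIN28A were not above background, DPPA4 was above it only on SB-OG, by a probe set other than the one used for the gene, and DNMT3B read 149 on SB-OG and 120 on control-OG. SOX2, the fifth, was at least 4.62-fold higher, with -0.07 on the log2 scale by another probe set. Epithelial markers, 7 of 13 above background, were at least 2-fold lower for 5 and higher for 1, CDH1 (median -4.74). The keratin KRT19 was lower in SB-OG by at least 182-fold, KRT8 by 51.3-fold, KRT18 29.5-fold and DSG2 26.7-fold, and EPCAM, GRHL2 and the claudins CLDN3, CLDN4 and CLDN7 were undetected. Mesenchymal markers, 9 of 9 above background, were at least 2-fold lower for 7 and higher for 1, PDGFRB (median -1.43). The furthest apart were THY1 (14.6-fold lower in SB-OG), CD44 (3.94-fold), ALCAM (3.86-fold) and NT5E (3.27-fold).

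**Figure D4:**
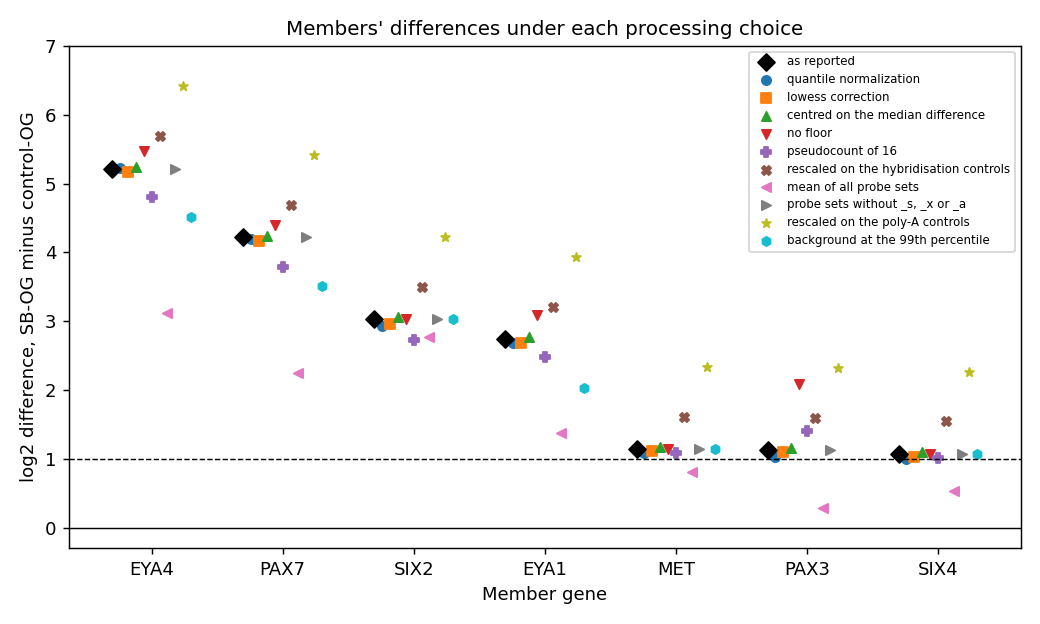
Log2 difference, SB-OG minus control-OG, of the 7 members above background, as reported (black diamonds) and under 10 other processing choices (coloured symbols); the dashed line is 2-fold. All points lie above 0, from 0.28 to 6.41. PAX3, PAX7, EYA1 and EYA4 were detected on SB-OG alone, which leaves little room below 0. EYA4, PAX7, SIX2 and EYA1 stay past 2-fold under each choice that gave a value. MET, PAX3 and SIX4 lie near the line and fall under it with the mean of all probe sets.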

How the data were processed

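Column-purified RNA of mixed HUES9 outgrowth cultures was labelled with biotin, per the labels' protocols. The authors deposited 1 linear intensity per probe set, 54675 on each of 2 arrays, made with software not given in the sources used here. The arrays had a mean of 150.0 without the lowest and highest 2% of values, so they appear scaled to one level, which hides a change in total RNA per cell. The array median was 21.8 on SB-OG and 22.6 on control-OG.

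The platform annotation of 2016 gave 1 gene to 41091 probe sets, whose symbols were updated by gene ID. Each gene was read by the probe set of highest average log2 intensity. Background came from 219 probe sets of late cornified envelope, defensin, keratin-associated, taste receptor and olfactory receptor genes. Values under it were set to it before log2 differences (SB-OG minus control-OG) were taken. Folds of genes detected on 1 array only are bounds, written "at least", and undetected genes have no fold. Counts used 2-fold.

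The members and the 16 lists of other genes were chosen with earlier results of these data known. From each list up to 4 genes of at least 2-fold difference with the largest size were named, all such genes in lists of 6 or fewer, and markers of other cells under background. Other genes named with values, such as SHC1, GRB2, SDC3, SDC4, CDH1 and PDGFRB, were chosen after their values were seen. Close paralogues may share signal, and no detection calls were used. The alternatives were a lowess correction (span 0.4), quantile normalization, centring, rescaling on hybridisation controls, the 99th percentile as background, no floor, a pseudocount of 16, averaging a gene's probe sets, leaving out probe sets with _s, _x or _a in the name, and 3-fold. Rescaling on poly-A controls was added after seeing the data. Precision is limited by the number of arrays. The functions were tested on simulated arrays, with changes placed only in genes well above background on control-OG. That does not cover genes detected on SB-OG alone, such as PAX3, PAX7, EYA1 and EYA4. Python 3.11.15, numpy 2.4.6, pandas 2.3.3, statsmodels 0.14.6 and matplotlib 3.10.9 were used.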

Additional observations from a re-analysis of the deposited data

How the results depend on the processing

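All 68 values of the 7 members under other processing choices were above 0, and 64 were at least 2-fold. Of the 7, PAX3, PAX7, EYA1 and EYA4 were detected on SB-OG alone, which left little room for values below 0. The number of members at least 2-fold higher in SB-OG was 4, in place of 7, with the mean of all probe sets and also at 3-fold. The number of member probe sets was 7, in place of 11, with only those without _s, _x or _a, which leaves fewer to count, and 6 at 3-fold. With the mean of all probe sets PAX3 was at 0.28, SIX4 at 0.54 and MET at 0.81 on the log2 scale, and SIX4 was at 0.998 after quantile normalization. PAX3 had no value with the higher background level, nor EYA1 without its _s probe set. Among all genes, 3025 were at least 2-fold higher and 914 lower after rescaling on hybridisation controls, 7506 and 443 after rescaling on poly-A controls, and 795 and 804 past 3-fold, against 1565 and 1638. The share higher in SB-OG, of genes past 2-fold, was 48.9% as reported, 76.8% with the hybridisation controls and 94.4% with the poly-A controls. These controls were lower on SB-OG by a median log2 difference of -0.47 and -1.20, and rescaling moved the median of all genes from near 0 to 0.45 and 1.17, a shift the members share. The cause of these control differences was not tested. No paired analysis was possible because each condition has 1 array, and for the same reason none could be left out.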

Other observations

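For 5 members (PAX3, PAX7, SIX4, EYA4 and MET) the annotation lists an expressed sequence tag for some probe sets and an mRNA, or no sequence, for others. In all 5 the brightest probe set was one listed with an expressed sequence tag. The probe sets listed with a RefSeq mRNA read 38.5 on SB-OG and 8.93 on control-OG for PAX7, 568 on SB-OG and 27.0 on control-OG for EYA4, and 16.4 on SB-OG and 10.2 on control-OG for SIX4. PAX3 had 2 such probe sets, both below background.

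The nearest coding genes on either side of the members, as ordered in the RefSeq gene table and limited to genes with a probe set, were 18 in number. Of these, 12 were above background, with 3 at least 2-fold higher in SB-OG (MNAT1 beside SIX4, MSC beside EYA1 and BTRC beside LBX1) and 2 lower (LACTB2 beside EYA1 and SLC2A10 beside EYA2). Among all genes above background, 12.4% were at least 2-fold higher and 13.0% at least 2-fold lower. TCF21, the neighbour of EYA4, read 2.86 on SB-OG, below background, and 42.3 on control-OG. Its bound, at least 1.56-fold lower, did not pass 2-fold. SIX3, the neighbour of SIX2, read 0.966 on SB-OG and 10.7 on control-OG, below background on both arrays. EPHA4 beside PAX3 read 190.0 on SB-OG and 191 on control-OG. These neighbours were read after the members' values were known.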
